A study of Homo sapiens with 12 samples.

Results

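The 36 genes described here are 17 genes of the enzymatic steps of glycolysis, 3 genes of enzymes that control its flow, 14 targets of the hypoxia response and the genes of both main hypoxia-inducible factor (HIF) alpha subunits. They were matched by gene symbol, and each matched 1 of the 57500 rows of the count table. Total RNA depleted of ribosomal RNA was sequenced in 12 libraries of 3 cell lines from human tumours, 4 groups with 3 biological replicates each. SW480 comes from a primary colorectal cancer and SW620 from a metastasis of the same patient. Both SW lines were untreated and grew in DMEM. PEO4, an ovarian cancer line, grew in RPMI 1640, either in control medium or with recombinant human TGF-β at 10 ng/mL for 6 days, and all groups had 10% FBS. SW620 was compared with SW480, and PEO4 with TGF-β with PEO4 control. The labels give no oxygen level, so hypoxia names the response the genes are known for and not a treatment of these cells. Each line stands for 1 tumour, so a difference between SW620 and SW480 is one between these lines.

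Glycolysis splits glucose into pyruvate in the cytosol, and lactate dehydrogenase can turn the pyruvate into lactate in place of its oxidation in mitochondria. With oxygen present, the EGLN hydroxylases mark HIF alpha subunits for destruction through the VHL ubiquitin ligase. When oxygen is low the alpha subunits build up, pair with ARNT and bind a short core motif near their target genes, many glycolytic genes among them. Alpha subunits are controlled largely at the protein level, which RNA counts do not show.

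The core motif was searched as ACGTG and as GCGTG, on both strands, in the 250 bases before each RefSeq transcription start (GRCh38.p14), and a CACGTG counts as ACGTG on both strands. Of the 36 genes, 34 matched the RefSeq table, with 60 starts. NDRG1 and BNIP3L did not match. ACGTG was found before 38.3% of these starts, against 18.5% of all 35116 starts in the table. GCGTG was found before 36.7%, against 32.2%. Either motif was found before 61.7%, against 43.2%. A match describes letters only and is not a binding site. Of the 12 matched genes that passed the test between the SW lines, 10 had a motif before at least 1 start, and of the 22 that did not pass, 19 had one. These counts are per gene over any start, and the same share over all genes was not computed. Genes with more starts had more windows, and some windows overlap. The 30 bases around the motif nearest the start are printed for 6 genes that the results turn on and for GAPDH, which has a motif and did not pass the test. Capitals mark the motif, which reads CACGT or CACGC where it lies on the other strand. The motif began 18 bases before the start of CA9 (chr9:35673898-35673927, + strand), 86 before that of P4HA1 (chr10:73096935-73096964, - strand) and 48 before the first start of HK2 (chr2:74834067-74834096, + strand). It began 8 bases before the second start of PDK1 (chr2:172556060-172556089, + strand), 53 before that of DDIT4 (chr10:72273859-72273888, + strand), 117 before that of EPAS1 (chr2:46297278-46297307, + strand) and 80 before that of GAPDH (chr12:6535172-6535201, + strand). The single window of EGLN3 and that of P4HA2 held neither motif.
CA9: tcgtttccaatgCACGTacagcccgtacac
P4HA1: tgtgatcgagctCACGTagcgagggctgca
HK2: aatggGCGTGcgCACGTcactgatccggag
PDK1: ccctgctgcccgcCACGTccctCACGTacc
DDIT4: ggcgcagagaagGCGTGgcctcgccgcgct
EPAS1: gggcctgccggcGCGTGcccgcccacacac
GAPDH: ctctgcggggtCACGTGtcgcagaggagcc

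Library totals ranged from 14531420 to 22028956 counts. Levels are in CPM, the count scaled to a common library total. The limit set by a count of 0, 3 counts, lay at 0.136 to 0.206 CPM by library and covers counting error only. The 36 genes took between 0.707% and 1.11% of a library's counts. The colorectal markers CDX2, VIL1 and HNF4A were present in every SW library. The 8 colorectal markers summed to 54.2 to 90.9 CPM in SW480 and 430 to 493 CPM in SW620, with 4 of 5 tested higher in SW620. But CDX1, KRT20, GPA33 and LGALS4 did not exceed 2.13 CPM in any library. CDH17 did not exceed 1.09 CPM in SW480 and 4.61 CPM in SW620. In PEO4 the colorectal sum did not exceed 3.57 CPM, and 8 ovarian markers, led by MUC16, summed to between 2600 and 8180 CPM. The ovarian sum was 116 to 154 CPM in SW480 and 157 to 190 CPM in SW620. MECOM and SOX17 went the other way, with at most 0.487 and 2.05 CPM in PEO4. In the SW lines these genes had at least 0.59 and 2.65 CPM. FOLR1 reached 13.2 CPM in PEO4 and 27.8 CPM in SW620. Markers of fibroblasts, endothelium and blood summed to 5.33 to 6.98 CPM in SW480 and 14.9 to 26.6 CPM in SW620, with LUM and PECAM1 called higher in SW620, while HBB stayed at or under 3 counts there. The part of these markers in the results below was not tested. In SW620 replicate 3, 20 genes that PEO4 expresses and the other 5 SW libraries hold at no more than 0.5% of the PEO4 level stood at 0.889% of that level. At that rate PEO4-like reads would make up 30% of the 12 EPAS1 counts of this library, 10.2% of its NDRG1 counts and 8.23% of its BNIP3 counts, and no more than 3.05% for any other of the 36 genes.

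Between SW620 and SW480 the hypoxia genes split in direction, and most genes of the glycolytic steps did not pass the test. The largest differences were in EPAS1, 150-fold lower in SW620, and CA9, 41.6-fold higher. Of the 36 genes, all tested, 14 passed edgeR's quasi-likelihood test at an adjusted p under 0.05, 9 higher and 5 lower in SW620. Over all 20941 genes tested, 30.5% passed, 13.5% higher and 17.0% lower. In 18 of the 36 genes the replicates of the lines did not overlap, against 44.2% of all genes tested. The median log2 fold change of the 36 genes was 0.11 and that of all genes tested 0.033. In bulk RNA, fewer cells expressing a gene and less RNA per cell cannot be told apart. Levels below are CPM on TMM-scaled totals, differences are log2 fold changes with standard errors (SE), and p-values are adjusted over all genes tested.

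**Figure D1:**
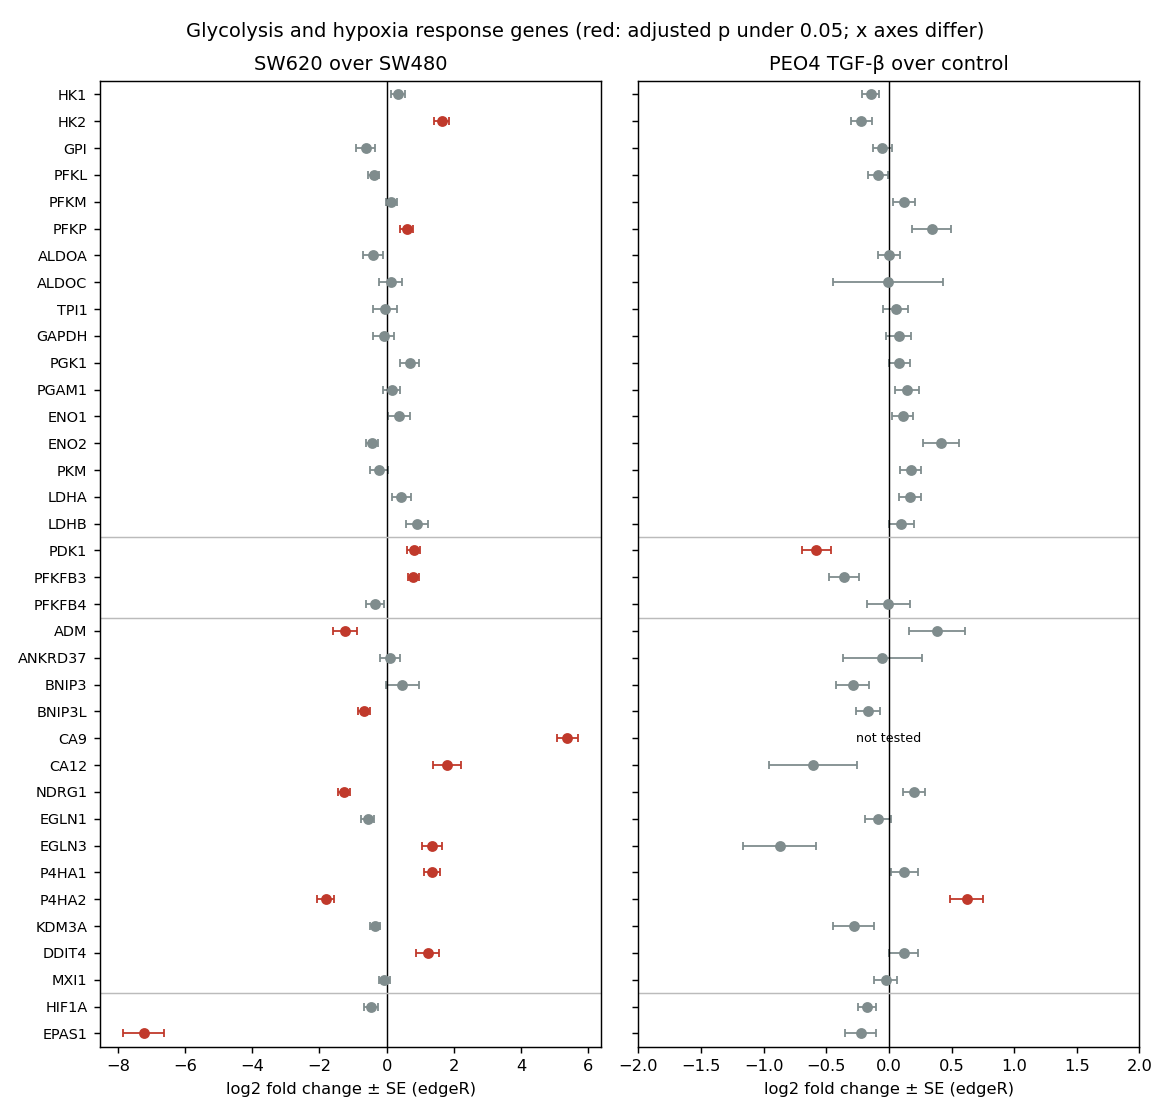
Log2 fold change with its SE from edgeR for each of the 36 genes, SW620 over SW480 on the left and PEO4 with TGF-β over PEO4 control on the right, on different x axes. Red points passed an adjusted p of 0.05, 14 on the left and 2 on the right, and EPAS1 and CA9 lie farthest from 0 on the left.

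EPAS1, the gene of HIF-2 alpha (chromosome 2, 46293667 to 46386703, GRCh38), had 469, 216 and 385 CPM in SW480 replicates 1, 2 and 3 and 2.45, 4.13 and 0.619 CPM in those of SW620. The lowest SW480 library lay far above the highest SW620 library. The SW620 levels rest on 45, 68 and 12 counts. EPAS1 fell by 7.23 ± 0.62 on the log2 scale (SE, adjusted p = 4.12e-05), from 357 ± 129 to 2.40 ± 1.76 CPM (SD, n = 3). HIF1A, the gene of HIF-1 alpha (chromosome 14, 61695513 to 61748259), had 164, 129.0 and 158 CPM in SW480 and 117, 81.9 and 126 CPM in SW620. Its groups did not overlap, but its log2 fold change of -0.47 ± 0.20 did not pass the test (adjusted p = 0.116). TPM is the count per exon length, scaled to the same sum in each library, with all annotated exons of a gene merged. Levels and shares between genes depend on these merged lengths, and the transcripts in use were not measured. In TPM, EPAS1 made up 61.4% of the summed HIF1A and EPAS1 level in SW480 and 1.75% in SW620. EPAS1 ranked 9 of the 36 genes by TPM in SW480 and 36 in SW620.

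Of the 14 hypoxia targets, 5 were higher in SW620 and 4 lower, against 13.5% and 17.0% of all genes tested. The other 5 targets did not pass. The largest rise was that of CA9 (chromosome 9, 35673856 to 35681159), the cell-surface carbonic anhydrase that acidifies the space around hypoxic tumour cells. It had 0.721, 1.29 and 0.906 CPM in SW480 and 33.6, 32.6 and 55.1 CPM in SW620, with no overlap, and rose by 5.38 ± 0.32 (SE, adjusted p = 7.33e-06). Of the CA9 exon bases, 38.5% are shared with ARHGEF39 on the opposite strand, and strand use in counting is not given in the sources used here. ARHGEF39 had 349 to 459 counts in SW480, where CA9 had 13 to 20, and 306 to 368 in SW620, where CA9 had 536 to 1068. The ARHGEF39 ranges of the lines overlapped. CA12, the related membrane carbonic anhydrase, had 1.17, 1.16 and 1.08 CPM in SW480 and 3.70, 2.37 and 5.73 CPM in SW620. It rose by 1.79 ± 0.41 (SE, adjusted p = 0.00992) and stayed at a low level in both lines.

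Among the hydroxylase genes, EGLN3 and P4HA1 were higher in SW620 and P4HA2 was lower. EGLN3, an oxygen-sensing prolyl hydroxylase that HIF itself induces, had 4.83, 8.06 and 9.74 CPM in SW480 and 16.2, 17.1 and 24.8 CPM in SW620. It rose by 1.36 ± 0.29 (SE, adjusted p = 0.00693), and every SW620 library lay above every SW480 library. EGLN1, the main enzyme of that family, had a log2 fold change of -0.56 ± 0.19, which did not pass (adjusted p = 0.056). EGLN3 made up 8.69% of the summed TPM of both in SW480 and 26.3% in SW620. P4HA1, an alpha subunit of the collagen prolyl hydroxylase (chromosome 10, 73007217 to 73096974), had 19.6, 13.5 and 24.0 CPM in SW480 and 46.7, 40.1 and 57.7 CPM in SW620, and rose by 1.34 ± 0.24 (SE, adjusted p = 0.00252). P4HA2, the alternative alpha subunit (chromosome 5, 132191838 to 132295315), had 33.6, 23.5 and 36.8 CPM in SW480 and 7.999, 7.11 and 11.5 CPM in SW620. P4HA2 fell by 1.82 ± 0.25 (SE, adjusted p = 0.000617). Neither gene's groups overlapped, and the P4HA2 share of the summed TPM of both genes was 37.7% in SW480 and 6.23% in SW620.

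DDIT4, an inhibitor of mTORC1 signalling, had 37.3, 31.5 and 50.1 CPM in SW480 and 101, 46.6 and 129 CPM in SW620. It rose by 1.22 ± 0.34 (SE, adjusted p = 0.0254), although SW620 replicate 2 lay below the highest SW480 library. NDRG1, a stress-response gene, had 76.3, 65.7 and 85.8 CPM in SW480 and 27.3, 33.4 and 33.9 CPM in SW620, and fell by 1.27 ± 0.17 (SE, adjusted p = 0.000562). ADM, the gene of the vasodilator adrenomedullin, had 10.2, 7.42 and 8.89 CPM against 2.18, 3.28 and 5.73 CPM, and fell by 1.24 ± 0.36 (SE, adjusted p = 0.029). BNIP3L, a receptor for the removal of mitochondria, had 71.5, 60.6 and 75.6 CPM against 43.3, 36.1 and 50.3 CPM, and fell by 0.68 ± 0.18 (SE, adjusted p = 0.0174). The groups of NDRG1, ADM and BNIP3L did not overlap. The other targets that did not pass were BNIP3 (0.47), ANKRD37 (0.089), MXI1 (-0.065) and the histone demethylase gene KDM3A (-0.35), given as log2 fold changes. BNIP3 and ANKRD37 counts are uncertain, since BNIP3 has 39 annotated pseudogene copies and ANKRD37 shares 35.2% of its exon bases with the opposite-strand gene UFSP2.

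**Figure D2:**
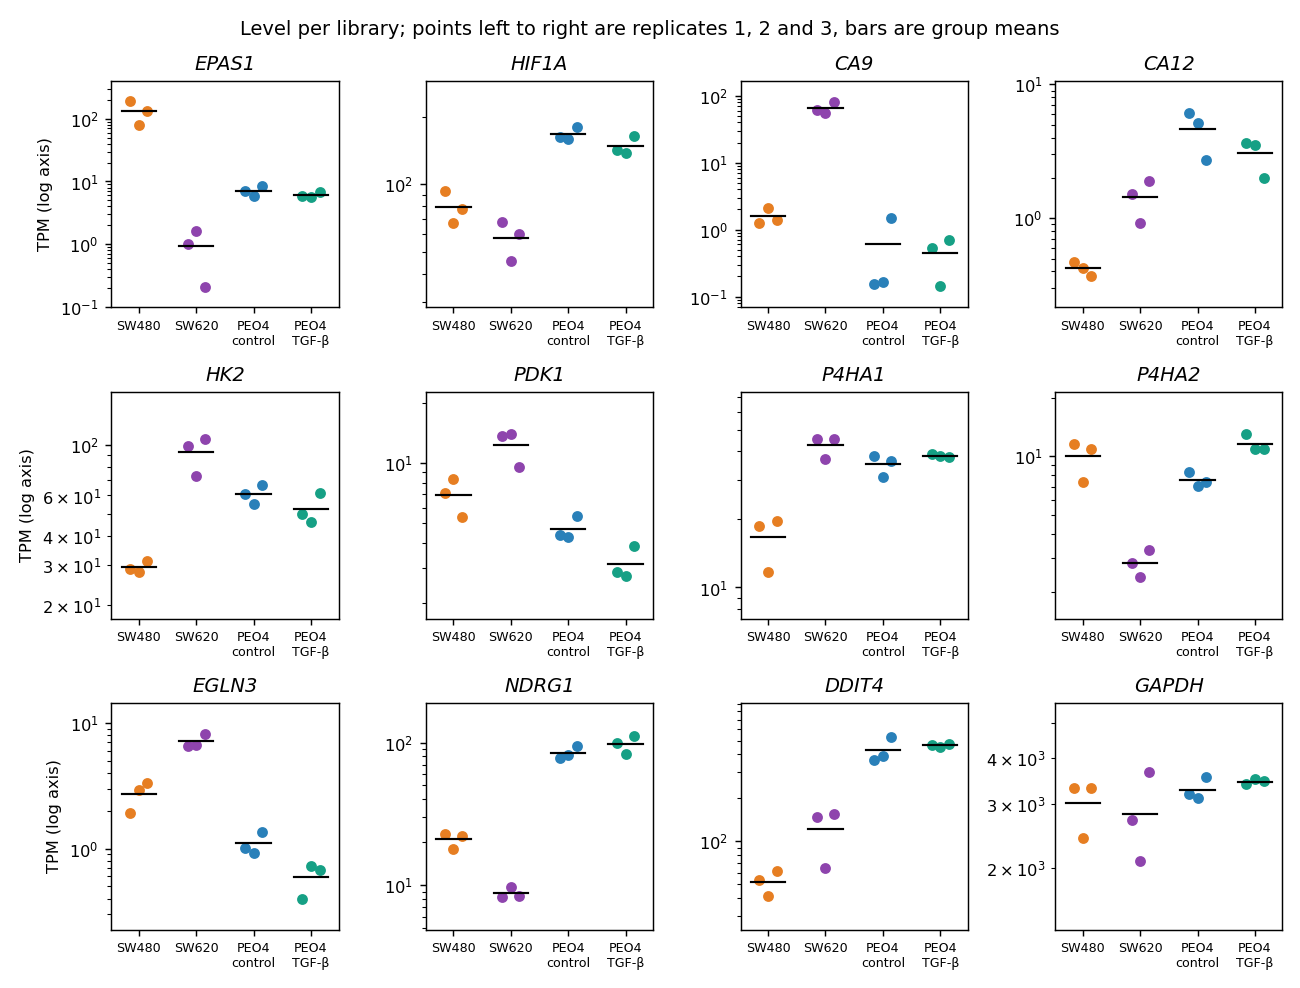
TPM of 12 of the genes in each of the 12 libraries on log axes whose range differs by panel, with points for replicates 1, 2 and 3 from left to right and bars for group means. EPAS1 is high only in the 3 SW480 libraries among these 12, CA9 only in the 3 SW620 libraries, and the GAPDH points of the SW lines overlap.

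Of the 17 genes of the glycolytic steps, 2 were higher in SW620, none was lower and 15 did not pass. The share of all genes tested was 13.5% higher and 17.0% lower. At an unadjusted p under 0.05 there were 6 of the 17, 4 higher and 2 lower (PFKL and ENO2), against 40.7% of all genes tested. Neither DESeq2 nor limma-voom called any of the 17 lower. Total-count scaling and the model of all 12 libraries called GPI and PFKL lower and LDHB and PGK1 higher. DESeq2 and dropping the filter on low counts called LDHB higher. Leaving out SW620 replicate 2 called LDHB and PGK1 higher, and leaving out SW620 replicate 3 called GPI and ENO2 lower. With a block for the replicate number, ALDOA, ENO2, GPI and PFKL were called lower and HK1, LDHA, LDHB and PGK1 higher. That block called 50.9% of all genes tested. HK2, a hexokinase of the first step of the pathway (chromosome 2, 74833981 to 74893359), had 58.9, 63.3 and 75.0 CPM in SW480 and 199.6, 155 and 262 CPM in SW620. All 3 SW620 libraries lay above all SW480 libraries, and HK2 rose by 1.64 ± 0.22 (SE, adjusted p = 0.000583). PFKP, the platelet form of phosphofructokinase, had 81.8, 63.3 and 77.3 CPM in SW480 and 104, 95.1 and 137 CPM in SW620, and rose by 0.60 ± 0.19 (SE, adjusted p = 0.0426). In both families the shares of HK2 and PFKP did not overlap between the lines. HK2 made up 48.0% of the summed TPM of HK1 and HK2 in SW480 and 69.4% in SW620, and PFKP made up 39.3% and 51.4% of that of the 3 phosphofructokinase genes. Leaving out SW480 replicate 1, 2 or 3, SW620 replicate 1 or SW620 replicate 3 ended the call of PFKP, as did RLE scaling and dropping the filter on low counts, while HK2 passed under all 14 alternatives.

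The 15 glycolytic genes that did not pass had log2 fold changes from -0.63 (GPI, glucose phosphate isomerase) to 0.91 (LDHB, the lactate dehydrogenase subunit of oxidative tissues). LDHB had 240.4, 148 and 259.6 CPM in SW480 and 412, 244 and 559 CPM in SW620, with overlap (adjusted p = 0.064). PGK1, which forms ATP from bisphosphoglycerate, had a log2 fold change of 0.69 ± 0.28 (SE, adjusted p = 0.0987), and LDHA, the other main lactate dehydrogenase gene, one of 0.44 ± 0.30 (SE, adjusted p = 0.305). GAPDH, the most abundant of the 36 genes per length in all 4 groups, had 3352, 2689 and 3906 CPM in SW480 and 2694, 2186 and 4467 CPM in SW620. Its log2 fold change was -0.090 ± 0.31 (SE, adjusted p = 0.862), and its 62 annotated pseudogene copies make its counts uncertain, as the copies of PGAM1 (13), LDHA (6), PKM (5), TPI1 (4), ENO1 (4) and LDHB (3) do theirs. LDHB made up 53.7% of the summed LDHA and LDHB TPM in SW480 and 61.5% in SW620, and all 3 SW620 shares lay above the SW480 shares. These shares rest on merged exon lengths of 2983 bases for LDHB and 6210 bases for LDHA. In mean CPM, LDHA was the higher of both, at 384 against 216 in SW480 and 522 against 405 in SW620.

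**Figure D3:**
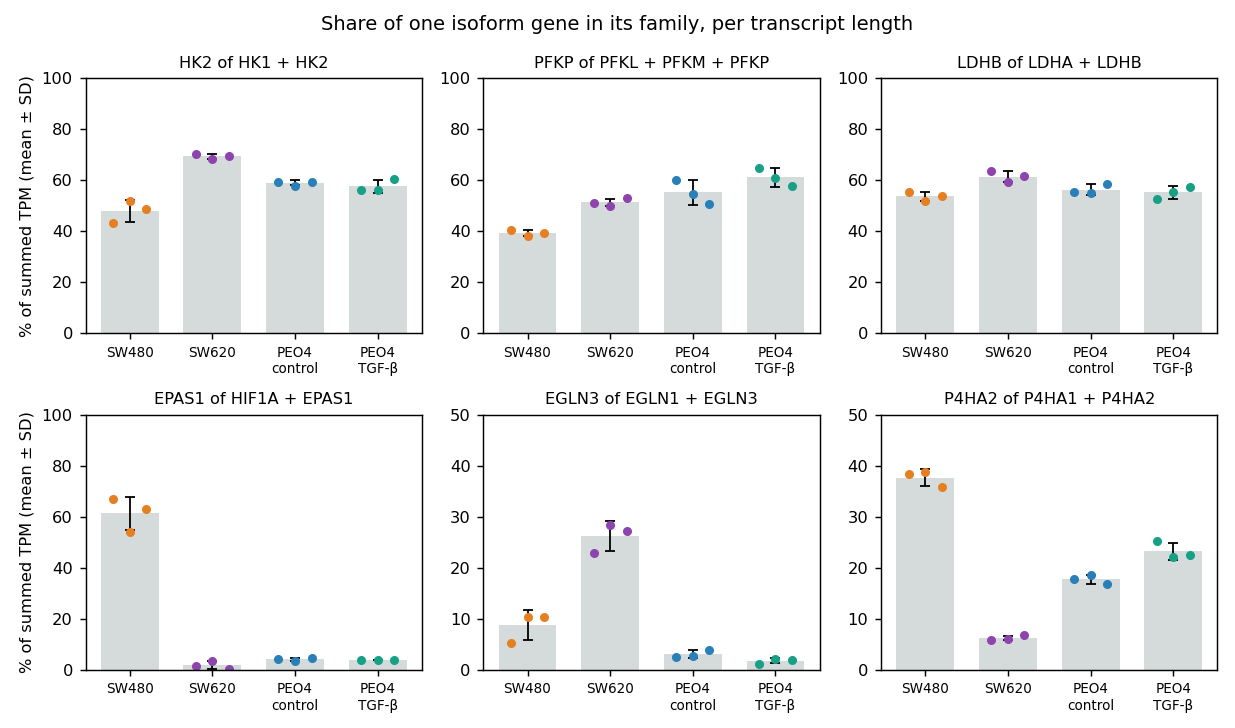
Share of 1 gene in the summed TPM of its family, in percent, with bars for group means, error bars for the SD of 3 libraries and points for replicates 1 to 3. The y axes of EGLN3 and P4HA2 end at 50%. The EPAS1 share is 61.4% in SW480 and at most 4.06% in the group means of the other 3 groups, and the P4HA2 share is 37.7% in SW480 and 6.23% in SW620.

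Both control enzymes that passed were higher in SW620. PDK1, the kinase that switches off pyruvate dehydrogenase (chromosome 2, 172555373 to 172608669), had 35.96, 46.1 and 31.8 CPM in SW480 and 67.7, 72.4 and 58.2 CPM in SW620, and rose by 0.80 ± 0.18 (SE, adjusted p = 0.00961). PFKFB3, which makes the fructose bisphosphate that activates phosphofructokinase, had 27.5, 27.2 and 34.7 CPM in SW480 and 47.9, 50.2 and 57.3 CPM in SW620, and rose by 0.80 ± 0.17 (SE, adjusted p = 0.00589). The groups did not overlap for either gene. PFKFB4, its relative, had a log2 fold change of -0.35 ± 0.26 (SE, adjusted p = 0.362). CA9, CA12, EGLN3, EPAS1, HK2, NDRG1, P4HA1, P4HA2 and PFKFB3 passed under all 14 alternatives. The calls of ADM, BNIP3L, DDIT4 and PDK1 were lost when 1 library was left out: all 4 without SW480 replicate 1, ADM, BNIP3L and PDK1 without SW480 replicate 3, ADM, BNIP3L and DDIT4 without SW620 replicate 1, DDIT4 without SW480 replicate 2 or SW620 replicate 3, and ADM without SW620 replicate 2.

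The genes of the glycolytic steps varied together between replicates of each SW line. Of the 17 genes, 14 were lowest in replicate 2 of both lines and 14 highest in replicate 3 of both, against 54.5% and 39.1% of all 10253 genes with at least 10 CPM. Their mean log2 CPM relative to each gene's mean over the 6 libraries was -0.0048, -0.35 and 0.13 in SW480 replicates 1, 2 and 3 and -0.016, -0.30 and 0.55 in those of SW620. The groups overlapped, and the range within SW620 was wider than the 0.155 between the group means. The 14 hypoxia targets had -0.29, -0.17 and -0.10 in SW480 and 0.068, 0.044 and 0.45 in SW620, without overlap, but that difference rests on CA9. Without CA9, left out after seeing the data, the other 13 targets had -0.082, -0.0097 and 0.094 in SW480 and -0.11, -0.13 and 0.24 in SW620, and the lines overlapped. The replicate 2 libraries also held the largest mitochondrial shares of counts, 14.3% in SW480 and 12.8% in SW620 against 7.59% to 11.7% in the other SW libraries. Their shares of the nuclear RNAs MALAT1 and NEAT1 were also the largest, 1.51% and 1.58% against 0.383% to 1.05%, and their totals the smallest, 14712953 and 14531420 counts. They held the smallest glycolytic shares of counts, 0.685% and 0.639%, against 0.776% to 1.01%. The part of these shares and of depth in the glycolytic levels was not tested. With both replicate 2 libraries left out, a choice made after seeing the data, 18 of the 36 genes passed, the 14 above and EGLN1, HIF1A, LDHB and PGK1. Of all 20483 genes tested without them, 36.8% passed, against 30.5% with all 6 libraries.

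**Figure D4:**
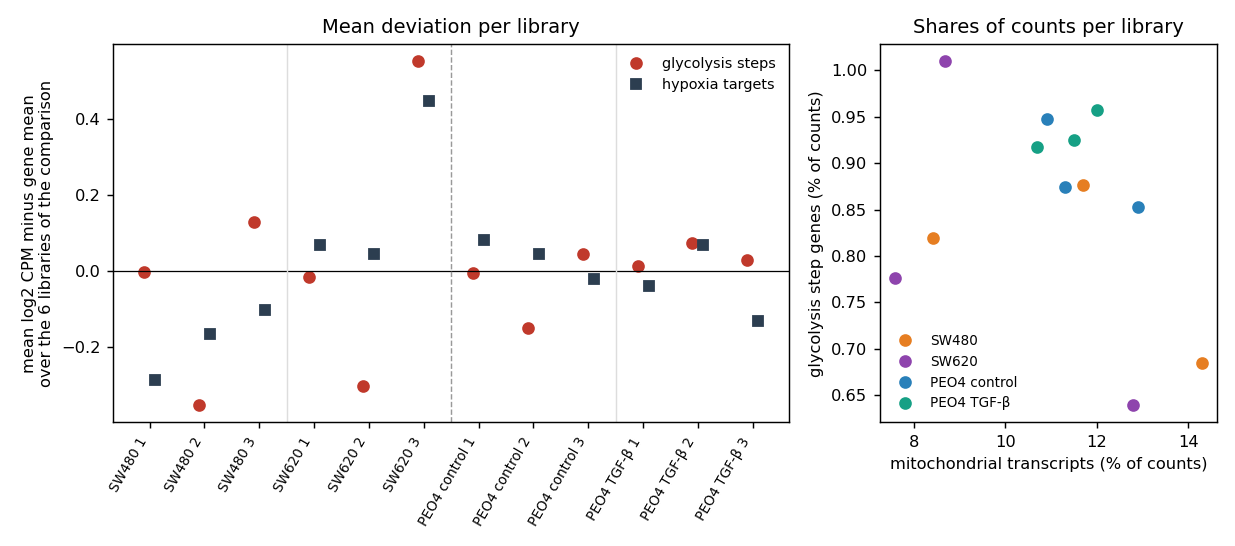
Left, mean over the 17 glycolytic genes (circles) and the 14 hypoxia targets (squares) of log2 CPM minus the gene's mean over the 6 libraries of its comparison, by library. Right, percent of counts in the 17 glycolytic genes against percent in mitochondrial transcripts for the 12 libraries. SW480 replicate 2 and SW620 replicate 2 are lowest for glycolysis on both sides, and SW620 replicate 3 is highest.

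Other genes of these pathways also passed in both directions between the SW lines, where 30.5% of all genes tested passed (13.5% higher, 17.0% lower). The counts below stand beside that share, and no list was tested as a set. Of 6 tested other isoenzymes of glycolysis, 3 were higher in SW620 and none lower, led by HKDC1, a hexokinase-like gene, from 2.22 ± 0.33 to 56.2 ± 14.4 CPM (SD, n = 3; log2 fold change 4.66, adjusted p = 5.12e-06), with ENO3 (1.06) and ADPGK (0.44). Of 10 glucose and lactate carriers, SLC2A4 was higher (1.47) and SLC2A3 (-3.54) and SLC2A14 (-5.51) were lower. SLC2A3 and SLC2A14 are near-identical in sequence, so their counts are uncertain. SLC2A14 also had only 0.210 ± 0.213 CPM in SW620 (SD, n = 3), near the limit set by a count of 0. The size of its fall is thus uncertain. Of 12 genes of pyruvate dehydrogenase and its control, PDP2 (2.19) and PDHX (0.64) were higher and PDP1 (-3.93) and PDK4 (-2.37) were lower, so both phosphatase genes changed in opposite directions, as did the kinase genes PDK1 and PDK4. Of 7 genes of fructose bisphosphate control and gluconeogenesis, PFKFB2 was lower (-1.04). Of 8 pentose phosphate genes, 2 were lower, TKT (-0.76) and TKTL1, at least 4.81-fold lower against the 3-count floor per library.

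Among 12 tested HIF partners and turnover factors, 2 were higher in SW620, ARNT2 (1.13) and the ubiquitin ligase gene VHL (1.03), and 2 were lower, CITED2 (-1.74), which competes with HIF for its coactivator, and the hydroxylase gene EGLN2 (-0.85). Of 24 other tested hypoxia targets, 4 were higher and 5 lower. The rises were led by PLOD2, a collagen lysyl hydroxylase gene (3.64), and VEGFA, the angiogenic factor gene, from 40.5 ± 3.33 to 183 ± 35.7 CPM (SD, n = 3; log2 fold change 2.18, adjusted p = 5.14e-05). The largest falls were those of CITED2, which is on both lists, and TMEM45A (-1.66). The median log2 fold change was -0.0074 for the partners and -0.085 for the other targets, against 0.033 over all genes tested. Over all genes tested, the share to set beside the calls of both lists, 30.5% passed, 13.5% higher and 17.0% lower.

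In PEO4, 6 days of TGF-β left 33 of the 35 tested genes below the threshold. P4HA2 was higher and PDK1 lower, by 1.54-fold and 1.496-fold from the fitted log2 fold changes. These 2 calls compare with 2.26% of all 19064 genes tested, 1.27% higher and 0.991% lower. In 10 of the 35 genes the groups did not overlap, against 21.5% of all genes tested, and the median log2 fold change was -0.0044, against -0.016. P4HA2 had 27.9, 23.8 and 22.7 CPM in control replicates 1, 2 and 3 and 43.9, 37.7 and 32.7 CPM with TGF-β. It rose by 0.62 ± 0.13 (SE, adjusted p = 0.0454), and its share of the summed P4HA1 and P4HA2 TPM was 17.8% in control and 23.3% with TGF-β. PDK1 had 25.5, 25.3 and 29.2 CPM in control and 16.7, 16.5 and 20.2 CPM with TGF-β, and fell by 0.58 ± 0.12 (SE, adjusted p = 0.0404). The groups of both genes did not overlap, but both calls were lost without control replicate 2, control replicate 3, TGF-β replicate 1 or TGF-β replicate 2, and with all 12 libraries in 1 model. The call of PDK1 was also lost under total-count scaling.

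None of the 17 glycolytic genes passed in PEO4, and their log2 fold changes lay between -0.22 (HK2) and 0.42 (ENO2, the neuronal enolase). At an unadjusted p under 0.05 there were 2, HK2 and ENO2, against 16.7% of all genes tested, and neither DESeq2 nor limma-voom called any of the 17. ENO2 and PFKP were called higher without the filter on low counts and with a block for the replicate number. In these settings 3.82% and 11% of all genes tested passed. ENO2 had 24.4, 22.5 and 32.4 CPM in control and 32.8, 34.1 and 38.9 CPM with TGF-β, without overlap (adjusted p = 0.187). HIF1A had 328, 327 and 335 CPM against 289, 290.1 and 296 CPM, without overlap, a log2 fold change of -0.18 ± 0.07 that did not pass (SE, adjusted p = 0.256). EPAS1 had 20.4, 16.8 and 22.3 CPM against 16.8, 16.8 and 17.3 CPM, with overlap, and -0.23 ± 0.12 (SE, adjusted p = 0.4). EGLN3 had the lowest log2 fold change of the 35 genes, -0.87 ± 0.29, at 3.08 against 1.68 CPM (SE, adjusted p = 0.179). CA9 was too low to be tested, with 2, 2 and 19 counts in control and 7, 2 and 9 with TGF-β, while ARHGEF39, which shares its exon bases, had 202 to 293 counts in the same libraries. P4HA2 and PDK1 thus had opposite signs in the SW comparison (-1.82 and 0.80), and the difference between the 2 comparisons was not tested. Of 25 other tested hypoxia targets, LOX (1.34, adjusted p = 0.0439) and STC2 (0.53, 0.0444) were higher with TGF-β and ANGPTL4 (-0.97, 0.041) was lower. Of 9 tested carriers, the lactate carrier SLC16A7 (-1.26, adjusted p = 0.0277) was lower. Over all genes tested, 2.26% passed. Whether the calls of these list genes hold under the alternatives was not tested. The ovarian markers MSLN, WT1 and EMX2 were also lower with TGF-β, and their part in these differences was not tested.

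The levels also differed between PEO4 and the SW lines, where line and medium cannot be told apart and no test was made. In PEO4 control 13 of the 36 genes lay above all 6 SW libraries and 5 below, against 25.4% and 22.1% of 20237 genes with at least 1 CPM in a group. DDIT4 was 10.3-fold higher than in SW480 and 4.45-fold higher than in SW620 and ranked 3 of the 36 genes by TPM in PEO4. NDRG1 was 5.07-fold and 12.4-fold higher, BNIP3 8.25-fold and 6.05-fold higher, CA12 14.2-fold and 4.13-fold higher, and HIF1A 2.65-fold and 3.72-fold higher. ALDOC, ANKRD37, ENO2, PFKFB4 and EGLN3 lay below all SW libraries. For EPAS1, PEO4 control lay between the SW lines, at 7.12 TPM against 134 TPM in SW480 and 0.943 TPM in SW620. CA9 ranked 35 of the 36 genes by TPM in PEO4 control and SW480 and 13 in SW620.

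The authors' deposited table of differential expression lists all 36 genes for the SW lines and calls 16 of them at an adjusted p under 0.05. These are the 14 above with EGLN1 (log2 fold change -0.56, adjusted p = 0.0391) and LDHB (0.90, adjusted p = 0.0232). For PEO4 the authors' deposited table lists 35 and calls P4HA2 (0.62, adjusted p = 0.00185) and PDK1 (-0.58, adjusted p = 0.00277). Of all genes with an adjusted p in that source, 34.3% are called for the SW lines and 5.66% for PEO4.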

How the data were processed

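The authors deposited whole-number counts per gene for 12 libraries, and the tests started from these counts. Per the submitters' processing notes, the tools were Trimmomatic 0.36, STAR 2.5.2b, featureCounts, Subread 1.5.2 and DESeq2, with build GRCh38. The annotation and the use of strand are not given in the sources used here. The authors' deposited tables also hold a log2 fold change and a p-value with its adjusted p-value per gene, used only to set calls side by side. The 36 genes and the pathway lists were chosen with earlier results of these data known. All 36 genes are accounted for. Those past the threshold, with HIF1A and EPAS1, are given in full, and of the other lists at most 4 genes past the threshold. LDHB, PGK1, LDHA, GAPDH, ENO2, EGLN1 and EGLN3 were named beyond that after their values were seen.

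The 6 libraries of a comparison entered 1 fit with edgeR 4.0.16 in R 4.3.3 (filterByExpr, TMM, glmQLFit, glmQLFTest, two-sided). Its p-values were adjusted by Benjamini-Hochberg over all genes tested, with a threshold of 0.05. The common biological coefficient of variation was 0.274 (SW lines) and 0.152 (PEO4). The p-values measure the spread between these replicates, and an exact permutation test of 3 against 3 libraries cannot go below 0.1, so none was used. TPM came from the counts and the merged lengths of all exons of a gene in GENCODE 29, which held 56898 of the gene IDs. Mean deviations used log2 CPM with a prior count of 2. Alternatives were DESeq2 1.42.0, limma-voom in limma 3.58.1, RLE and total-count scaling, no filter on low counts, 1 model of 12 libraries, a block for the replicate number and leaving out each library. Leaving out both replicate 2 libraries of the SW lines, and leaving CA9 out of the mean deviation of the hypoxia targets, were added after seeing the data. The fits were also run on simulated counts, drawn independently for each library and with few changed genes. That run does not show how they behave when same-numbered libraries vary together or many genes differ. A list gene past the threshold in PEO4 is not reported here.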

Additional observations from a re-analysis of the deposited data

How the results depend on the processing

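Between SW620 and SW480, where 14 of the 36 genes passed (9 higher, 5 lower), 9 were lower under total-count scaling and 9 with all 12 libraries in 1 model. Leaving out 1 library gave 9 to 15 genes past the threshold, 3 to 8 of them lower, a median log2 fold change of -0.143 to 0.252, and 4253 to 7419 calls among all genes, against 6385. No gene of the 36 past the threshold changed direction under any alternative run. In PEO4, where 431 genes and 2 of the 36 passed, DESeq2 called 967 genes, dropping the filter on low counts 1457 and the 12-library model 165. Of the 36, total-count scaling called 1 (0 lower), dropping the filter 4 (3 higher) and the 12-library model 0, with 0 higher and 0 lower. Leaving out 1 library gave 72 to 1080 calls, 0 to 2 among the 36 (0 to 1 in each direction) and a median of -0.0335 to 0.101. These fits assume that a group left with fewer libraries varies like the other. The cause of these changes was not tested.

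With the replicate number as a block, 10667 genes passed between the SW lines, 26 of the 36 among them (13 lower), and 2102 in PEO4, 8 of the 36 among them (4 higher, 4 lower). The block added ALDOA, EGLN1, ENO2, GPI, HIF1A, HK1, KDM3A, LDHA, LDHB, PFKFB4, PFKL and PGK1 for the SW lines and ADM, BNIP3, CA12, ENO2, PFKFB3 and PFKP for PEO4. Over all genes, deviations of same-numbered libraries correlated at 0.0159, 0.67 and 0.567 for the SW lines and 0.291, -0.14 and 0.481 for PEO4. Over the 36 genes (35 in PEO4) they correlated at 0.396, 0.449 and 0.45 and at 0.576, 0.427 and 0.882. The labels do not say that a number marks a shared batch or day, and the main fits did not pair the samples. Whether the numbers mark a pairing was not tested. Over all genes, SW480 replicates 2 and 3 correlated best with the same number in SW620. SW480 replicate 2 with SW620 replicate 3 gave -0.63, and SW480 replicate 3 with SW620 replicate 2 gave -0.582. SW480 replicate 1 correlated best with SW620 replicate 3 (0.267). In PEO4, control replicates 1 and 3 correlated best with the same number, and control replicate 2 with TGF-β replicate 1 (0.239).

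The mean deviation of the hypoxia targets was 0.371 higher in SW620 than in SW480, and without CA9 the difference was -0.000963. Among single genes, signs reversed only in those that did not pass. Over the fits without 1 library, log2 fold changes of SW620 over SW480 ran from -0.495 to 0.256 for TPI1, -0.456 to 0.163 for GAPDH, -0.133 to 0.382 for PGAM1, -0.507 to 0.0248 for PKM, -0.119 to 0.377 for ANKRD37, -0.0219 to 0.952 for BNIP3, -0.153 to 0.0618 for MXI1, -0.0112 to 0.249 for PFKM and -0.328 to 0.389 for ALDOC. MXI1 was at 0.0871 without both replicate 2 libraries. In PEO4 they ran from -0.0335 to 0.0625 for ALDOA, -0.323 to 0.224 for ALDOC, -0.0101 to 0.132 for TPI1, -0.0996 to 0.0847 for PFKFB4, -0.263 to 0.144 for ANKRD37, -0.16 to 0.048 for EGLN1 and -0.0881 to 0.0376 for MXI1. ALDOA was at -0.00113 with limma-voom, -0.0189 under total-count scaling and -0.00148 with the replicate block. PFKFB4 was at 0.00511 with limma-voom. Without the filter, PFKFB4 was at 0.0233, ALDOC at 0.0151 and MXI1 at 0.000161, and with 12 libraries in 1 model at 0.0313, 0.0181 and 0.0071.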
